A study of Mus musculus with 7 samples.

Results

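The glial connexin genes described here are Gjb1, Gjc3, Gja1, Gjb6, Gjb2, Gjd2 and Gjc1, 7 of the 49315 genes in the count tables, chosen by name for gap junctions of oligodendrocytes, astrocytes and neurons and found by their symbols. All 7 passed the filter on low counts. Their transcripts were measured in cultured mouse oligodendroglia by RNA-seq of 7 libraries, 4 from wildtype controls (genotype Klf13-wt) and 3 from Klf13 knockouts (genotype Klf13-ko). The precursor cells were shaken off mixed glial cultures from brains of newborn pups of both sexes, depleted of microglia, and held for 6 days in SATO medium with thyroid hormones. The knockout is constitutive in all tissues, and wildtype and knockout cultures received the same differentiating treatment. The comparison asks what the loss of the transcription factor KLF13 does to transcript levels in differentiating oligodendroglia.

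Connexins are membrane proteins that assemble into hemichannels, and hemichannels of neighbouring cells dock to form gap junctions through which ions and small metabolites pass. Oligodendrocytes and astrocytes make different connexins, and junctions between these cell types join them into a network that is known for taking up potassium and passing metabolites in white matter. Gjb1 encodes Cx32 of myelinating oligodendrocytes, and Gjc3 encodes Cx29, which oligodendroglia place along myelinated fibres and which is thought to form hemichannels rather than full junctions. Gja1 encodes Cx43 and Gjb6 Cx30, the main connexins of astrocytes, and Gjb2 encodes Cx26, found in astrocytes and meningeal cells. Gjd2 encodes Cx36 of electrical synapses between neurons, and Gjc1 encodes Cx45 of neurons, vessel walls and other cells.

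Counts on genes ranged from 24507471 to 59596479 per library, and between 6.03% and 18% of them fell on Gm42418, Gm23935 and Lars2, where reads of ribosomal RNA collect. Klf13, the targeted gene, had 10670 to 12000 normalized counts in the controls and 802 to 961 in the knockouts. A normalized count is a count scaled to a common library size by edgeR's TMM method. The lineage genes Sox10, Olig1 and Olig2 were abundant in all libraries, with log2 fold changes of -0.31, -0.10 and -0.04, and 0 of these 3 passed in edgeR at 0.05, adjusted or unadjusted. Markers of other cell types were also present, and they are counted as lower or higher at an adjusted p of 0.05 or less in edgeR, which 12.2% and 11.6% of all tested genes reached. Of 10 astrocyte markers 8 were higher in the knockout, and their summed normalized counts ranged from 106100 to 148800 in the controls and from 206100 to 240900 in the knockouts. Of 11 neuron markers 9 were higher, with sums of 38880 to 52300 and 57680 to 73400. The 9 markers of mature oligodendrocytes were all lower, with sums of 889500 to 1061000 and 208200 to 245800, and of 5 markers of oligodendrocyte precursors (OPCs) 2 were higher and 0 lower. Control replicate 3 stood apart in microglia markers, with a sum of 73700 against 14770 to 32440 in the other 6 libraries, and together with control replicate 4 in fibroblast and mural cell markers, with sums of 57440 and 42370 against 5428 to 15610. Of 6 endothelial markers 3 were tested and 1 was lower, and Cldn5 was at 0 in all controls. The part of these other cells in the connexin values was not tested. In bulk RNA, fewer cells of a type and less RNA per cell cannot be told apart.

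Of the 7 connexins, 2 were lower and 1 was higher in the Klf13 knockout at an adjusted p of at most 0.05, where 12.2% of the 18352 tested genes were lower and 11.6% higher. Gjb1 fell to 9.05% of its control level and Gjc3 to 74.9%, while Gja1 rose 2.72-fold. With a log2 fold change of at least 1 required as well, Gjb1 remained on the lower and Gja1 on the higher side, calls that 3.08% and 3.97% of tested genes reached in these directions. Gjb1 is one of the genes that the study had itself selected from these libraries, so that its fall is not independent evidence. Normalized counts of the groups did not overlap for 6 of the 7 connexins, 2 lower and 4 higher, against 36.2% of tested genes in either direction. The median log2 fold change was 0.34 over the 7 connexins and -0.004 over all tested genes. Adjusted p-values of single genes come from the quasi-likelihood test of edgeR, adjusted over all tested genes, unless another test is named.

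**Figure D1:**
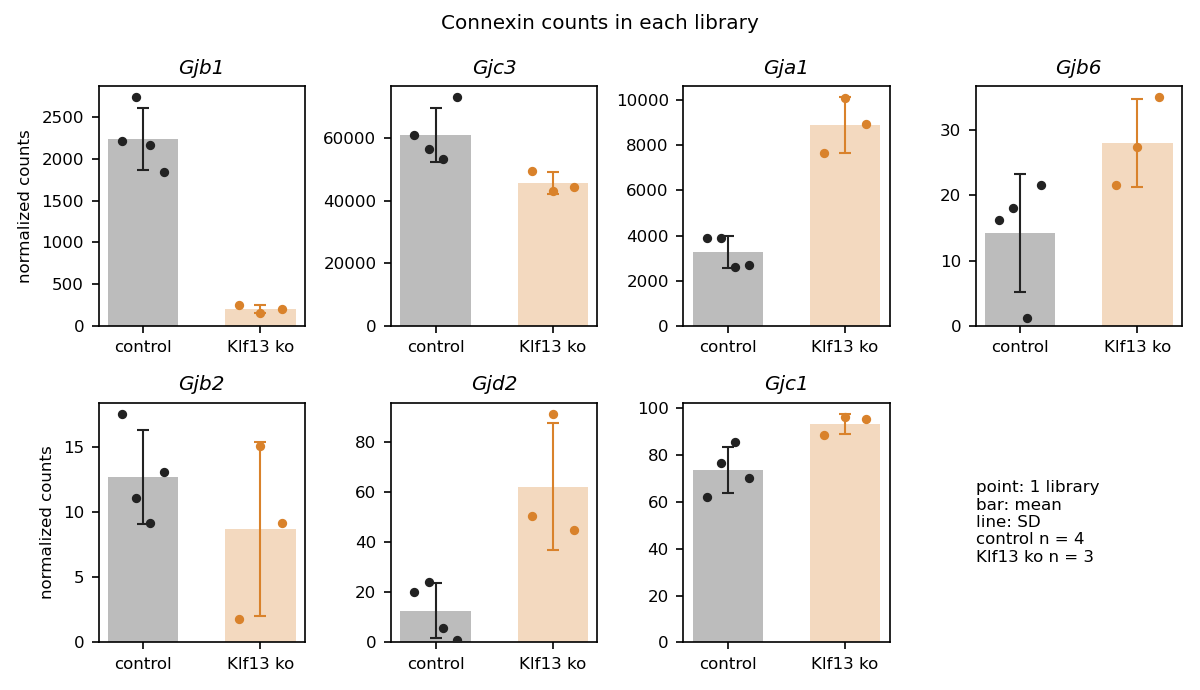
Normalized counts of each connexin in the 4 control and the 3 Klf13 knockout libraries, with points for libraries, bars for means and lines for the SD. Gjb1 points of the knockouts lie between 155 and 255 and those of the controls between 1845 and 2737, Gja1 shows the opposite order, and only the Gjb2 panel has overlapping groups.

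Gjb1, which is on the X chromosome of GRCm38 from 101376378 to 101385629 on the plus strand, keeps its whole coding sequence of 849 bases in a single exon. Control replicates 1 to 4 held 2221, 2737, 2165 and 1845 normalized counts of Gjb1, and knockout replicates 1 to 3 held 255, 155 and 200. Every knockout library was thus far below every control, and control replicate 2 was the highest. The log2 fold change was -3.49 (standard error 0.21, 95% confidence limits -3.98 and -2.99, adjusted p = 9.50e-05 in edgeR), and Gjb1 ranked 71st among all tested genes by p. Its log2 fold change stayed between -3.64 and -3.32 under the 14 alternatives tried. Relative to the control mean, the knockout libraries held 11.4%, 6.90% and 8.90% of Gjb1, beside 25.6%, 21.7% and 22.7% of the summed mature oligodendrocyte markers. That sum is weighted to its most abundant markers, among them Mbp with a log2 fold change of -1.78, while the median of the 9 markers was -3.15, with a range from -3.57 to -1.78 that includes the value of Gjb1. The genes with the most similar pattern over the 7 libraries, by the root mean square difference of centred log2 CPM, were the myelin genes Mog (0.12) and Mal (0.15) and Klhl4 (0.15).

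The bases before annotated starts of the 3 connexins that passed the test are shown because Klf factors are known to bind short C-rich motifs. The motif searched, which the study uses for Klf proteins, was NCNCCC with A or C as the first base and A, G or T as the third, on both strands, and its matches are in capitals. RefSeq (GRCm38.p6) lists 4 starts of Gjb1, and the window printed is the one with the most matches, 8 of them, which was picked after counting. It lies 5′ of the start nearest to the coding sequence, 436 bases away on the genome, and overlaps no exon of the longer transcripts. The windows of the other 3 starts of Gjb1 hold 0, 1 and 0 matches. Gjc3 has 1 match and Gja1 has 3, at starts 201 and 10247 bases from the coding sequence. All are written 5′ to 3′ on the strand of the gene.
Gjb1, plus strand of chrX:101383482-101383731: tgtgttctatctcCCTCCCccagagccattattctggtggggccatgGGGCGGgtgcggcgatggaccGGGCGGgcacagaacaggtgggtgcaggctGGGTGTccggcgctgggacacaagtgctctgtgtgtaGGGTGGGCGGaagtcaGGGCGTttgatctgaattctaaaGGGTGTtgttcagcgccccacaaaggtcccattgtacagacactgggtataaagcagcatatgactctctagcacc
Gjc3, minus strand of chr5:137963099-137963348: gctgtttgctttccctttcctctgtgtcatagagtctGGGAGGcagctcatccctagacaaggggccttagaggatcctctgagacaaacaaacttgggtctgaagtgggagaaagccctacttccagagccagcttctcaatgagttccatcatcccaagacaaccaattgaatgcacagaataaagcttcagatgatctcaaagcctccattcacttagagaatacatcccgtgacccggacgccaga
Gja1, plus strand of chr10:56377050-56377299: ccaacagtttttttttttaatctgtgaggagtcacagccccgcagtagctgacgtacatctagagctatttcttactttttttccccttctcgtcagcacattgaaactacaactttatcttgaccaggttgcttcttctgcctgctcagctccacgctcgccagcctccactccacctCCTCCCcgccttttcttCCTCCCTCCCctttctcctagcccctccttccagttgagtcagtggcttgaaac
Of the 32851 promoter windows of the same 250 bases, 72.6% hold the motif at least once, with a median of 1 match, and 2.81% hold 8 or more. Windows of Gjb6, Gjb2 and Gjd2 hold 1, 7 and 2 matches. A match is a string of letters and no binding site, and gene-level counts do not tell which start of Gjb1 was used.

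Gjc3, on chromosome 5 from 137953461 to 137963098 on the minus strand, was by far the most abundant of the 7 connexins. Its normalized counts were 60880, 56640, 53350 and 73050 for control replicates 1 to 4, against 49480, 43040 and 44540 for knockout replicates 1 to 3. The lowest control, replicate 3, was above the highest knockout, replicate 1, by a gap smaller than the spread among the controls. Gjc3 fell by a log2 fold change of -0.42 (standard error 0.12, 95% confidence limits -0.69 and -0.14, adjusted p = 0.0394 in edgeR). This call was lost without any single library other than control replicate 3. The adjusted p of edgeR was 0.0917, 0.0513 and 0.0535 without control replicates 1, 2 and 4, and 0.0873, 0.129 and 0.131 without knockout replicates 1, 2 and 3. The log2 fold change remained negative in all of these fits, between -0.48 and -0.30. Among the genes closest to Gjc3 in pattern were the glutamate transporter gene Slc1a1 and Mtmr10, with root mean square differences of 0.025 and 0.039.

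Both oligodendrocyte connexins were thus lower, but by different amounts. Within each library, the log2 ratio of Gjb1 to Gjc3 was -4.78, -4.37, -4.62 and -5.31 in the controls, against -7.60, -8.12 and -7.80 in the knockouts. The mean difference of -3.07 was many times the spread within the groups, with no overlap. An exact two-sided permutation test over the 7 libraries gave p = 0.0286, the smallest that 4 against 3 libraries allow, and 0.0857 after adjustment over the 3 ratios compared. With 5 in place of 0.5 normalized counts added to both genes, the difference was -3.04 and the adjusted exact permutation p was 0.0429. The unadjusted p was already the smallest possible. The adjusted value was lower only because the ratio of Gjb2 to Gjb6, given below, had a lower p in this setting, so it adds nothing on Gjb1 and Gjc3. Library size cancels in such a ratio.

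**Figure D2:**
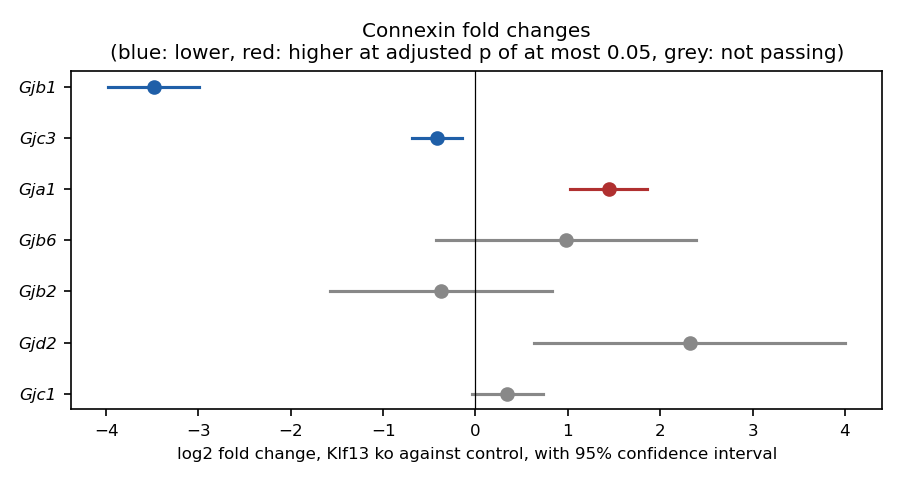
Log2 fold change of each connexin in the Klf13 knockout against the control, with its 95% confidence interval from the fit of edgeR (4 control and 3 knockout libraries). Gjb1 at -3.49 and Gjc3 at -0.42 lie left of 0 and Gja1 at 1.44 lies right of it, while the other 4 did not pass an adjusted p of 0.05.

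Gja1, on the plus strand of chromosome 10 from 56377300 to 56390419 as the count tables give it, was the connexin that rose. Control replicates 1 to 4 held 3889, 3899, 2629 and 2682 normalized counts of Gja1, and knockout replicates 1 to 3 held 7659, 10100 and 8928. Every knockout library was higher than every control, and among the controls replicates 1 and 2 were above replicates 3 and 4. This made a log2 fold change of 1.44 (standard error 0.18, 95% confidence limits 1.03 and 1.86, adjusted p = 0.00224 in edgeR). It was between 1.34 and 1.56 under the 14 alternatives, with a largest adjusted p of 0.0117. Relative to the control mean, Gja1 stood at 234%, 308% and 273% in the knockouts, and the summed astrocyte markers at 155%, 182% and 159%. The most abundant of these markers, the intermediate filament gene Gfap, the water channel gene Aqp4 and the glutamate transporter gene Slc1a2, rose by log2 fold changes of 0.66, 1.19 and 0.61, and the median of the list was 0.65, with a range from -0.22 to 1.19. None of the 10 astrocyte markers was at 0 in all libraries. Fibroblasts are known to make Gja1 as well. Over the 8 fibroblast and mural cell markers, the log2 fold changes had a median of -2.07 and 7 were below 0, of which 1 passed in edgeR, and their summed normalized counts were 12350 to 57440 in the controls against 5428 to 12780 in the knockouts. Gsta4, Smoc1 and 1700048O20Rik were closest to Gja1 in pattern, with root mean square differences of 0.063, 0.093 and 0.10.

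The other astrocyte connexins had few counts. Gjb6 and Gjb2 are neighbours on the minus strand of chromosome 14, Gjb6 from 57123303 to 57133611 and Gjb2 from 57098600 to 57104702, with 18600 bases and 1 annotated gene, Gm4491, between them. Raw counts of Gjb6 were 12, 18, 1 and 23 for control replicates 1 to 4, against 12, 40 and 46 for knockout replicates 1 to 3. After normalization the lowest knockout library was at 21.7 and the highest control at 21.5, so that the groups were separated by less than 1 normalized count. The log2 fold change of 0.98 had 95% confidence limits of -0.43 and 2.39 and did not pass (adjusted p = 0.290 in edgeR). Without control replicate 3, which has the single count, it was 0.61. Those of Gjb2 were 13, 11, 8 and 14 against 1, 22 and 12, so that the groups overlapped. Its log2 fold change was -0.38, with 95% confidence limits of -1.58 and 0.83 (adjusted p = 0.653 in edgeR), and it moved to -0.04 without knockout replicate 1, to -0.96 without knockout replicate 2 and to -0.18 without control replicate 1. The genes closest to Gjb6 in pattern, 2610011E03Rik, Gm15916 and 9130015G15Rik, were low as well and lay 0.24, 0.30 and 0.31 away by the same measure.

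The log2 ratio of Gja1 to Gjb6 was 7.86, 7.71, 10.6 and 6.93 in the controls, against 8.43, 8.50 and 7.97 in the knockouts. The high value of control replicate 3 rests on its single count of Gjb6. The mean difference was 0.01 and did not pass (p = 1 in an exact two-sided permutation test over 4 and 3 libraries). With 5 in place of 0.5 normalized counts added, it was 0.50 and did not pass either (adjusted exact permutation p = 0.429). Without control replicate 4, 2 or 1 or knockout replicate 1 or 2 the sign turned, to -0.44, -0.18, -0.13, -0.05 and -0.08, so no direction is given. For the neighbouring Gjb2 and Gjb6, the log2 ratio was 0.11, -0.69, 2.55 and -0.69 in the controls, against -3.27, -0.84 and -1.88 in the knockouts. All 3 knockout values were below all control values, with a mean difference of -2.32 that did not pass (exact two-sided permutation p = 0.0857, adjusted 0.129). It was -1.57 without control replicate 3, whose ratio rests on the same single count, and between -2.90 and -1.68 without each other library. The lowest ratio, of knockout replicate 1, rests on a single count of Gjb2. With 5 in place of 0.5 normalized counts added, the difference was -1.44 and passed (adjusted exact permutation p = 0.0429).

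Gjd2, the gene of electrical synapses, is on chromosome 2 from 114009601 to 114013619 on the minus strand. Raw counts were 15, 24, 5 and 1 for control replicates 1 to 4, against 28, 133 and 59 for knockout replicates 1 to 3. After normalization these are 20.3, 24.1, 5.72 and 0.936 against 50.6, 91.4 and 44.9. All knockout libraries were above all controls, with knockout replicate 2 highest and control replicate 4 lowest. For Gjd2 the log2 fold change was 2.32 (standard error 0.72, 95% confidence limits 0.63 and 4.00), which did not pass (adjusted p = 0.0548 in edgeR). It passed with the replicate number as a block (log2 fold change 1.98, adjusted p = 0.0232 from edgeR), in DESeq2's Wald test (2.30, adjusted p = 0.0150) and in edgeR without control replicate 2 (2.90, adjusted p = 0.0447). The block thereby raised the number of higher connexins from 1 to 2. Control replicate 4 has no knockout of the same number, so it adds nothing to the fold change in this block. Without that library and with no block, the log2 fold change was 1.925 and did not pass (adjusted p = 0.0522 in edgeR). The summed neuron markers were at 133%, 163% and 128% of the control mean in the knockouts, and Gjd2 at 396%, 716% and 352%. That sum is made up mostly of Map2 and Elavl3, with log2 fold changes of 0.74 and -0.46, of which the second did not pass. Over the 11 neuron markers the log2 fold changes ranged from -0.46 to 2.12, the value of Snap25. Their median of 1.70 and the value of Snap25 both lie within the 95% confidence limits of Gjd2. Hpca, Islr2 and Rph3a, all with larger counts than Gjd2, came closest to it in pattern, with root mean square differences of 0.18, 0.24 and 0.24. Their log2 fold changes were 2.24, 2.34 and 2.31 and passed. The pattern includes the difference between the groups. Similar fold changes thus follow from how these genes were picked and are no evidence on Gjd2. An antisense transcript, A530058N18Rik, which has 2 entries in the count tables, shares a short stretch with the 5′ end of Gjd2 and received 0 to 10 counts per library.

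Gjc1, on chromosome 11 from 102799579 to 102819700 on the minus strand, stood at 62.1, 76.4, 85.7 and 70.2 normalized counts for control replicates 1 to 4, against 88.5, 96.2 and 95.2 for knockout replicates 1 to 3. The knockout libraries were all above the controls by a narrow margin. A log2 fold change of 0.34, with 95% confidence limits of -0.04 and 0.73, did not pass (adjusted p = 0.179 in edgeR), and it passed in 0 of the 14 alternatives. Sfxn3, Galnt10 and Sdc4 were closest to Gjc1 in pattern, with root mean square differences of 0.063, 0.067 and 0.067.

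**Figure D3:**
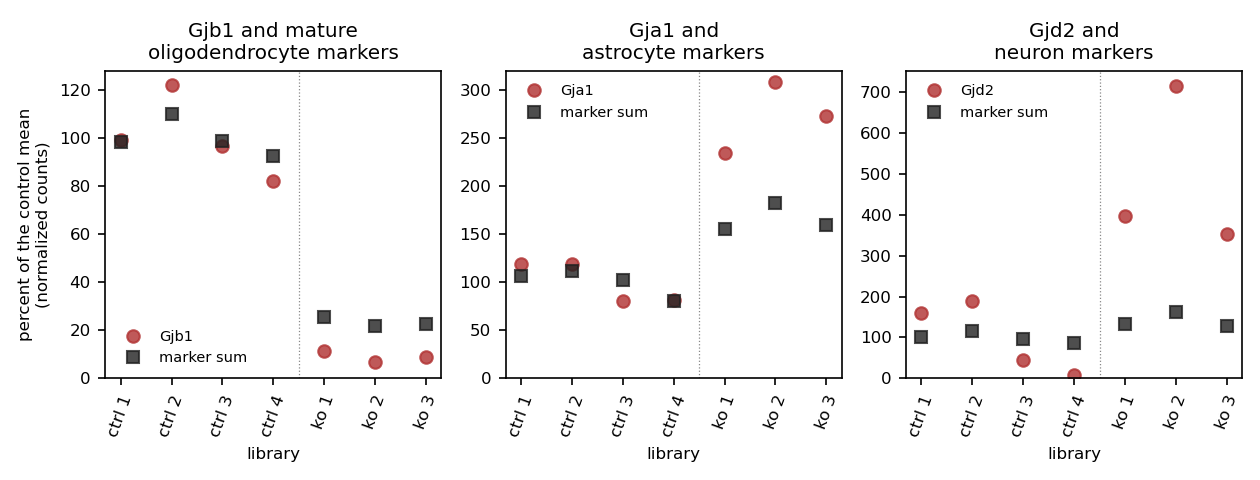
Normalized counts in each library as percent of the control mean for Gjb1, Gja1 and Gjd2 (circles), beside the summed markers of mature oligodendrocytes, astrocytes and neurons (squares). Right of the dotted line, in the 3 knockout libraries, Gjb1 lies at 6.90% to 11.4% and below its marker sum, and Gja1 and Gjd2 lie above theirs, where each sum is weighted to its most abundant markers.

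Levels of different genes were compared as RPKM, counts per kilobase of exon scaled to library size as in CPM. In the controls, the RPKM of Gjc3 was 319 ± 45.0 (SD, n = 4 libraries), that of Gjb1 29.9 ± 4.93 and that of Gja1 24.0 ± 5.24. The ranges of Gjb1, 24.6 to 36.5, and of Gja1, 19.3 to 28.6, overlapped between libraries. Within each of the 4 controls Gjb1 was above Gja1, by the least in replicate 1 (29.6 against 28.5). Gjc1 followed at 0.335 ± 0.0454 RPKM, above the ranges of Gjb6 (0.143 ± 0.0903), Gjb2 (0.120 ± 0.0341) and Gjd2 (0.101 ± 0.0884), which overlapped each other. In the knockouts, Gjc3 still led with an RPKM of 239 ± 17.6 (SD, n = 3 libraries). Gja1 came next at 65.2 ± 8.94 RPKM, and Gjb1, at 2.71 ± 0.667, was below it in every library. Gjd2 (0.493 ± 0.201 RPKM) and Gjc1 (0.424 ± 0.0192) overlapped, and Gjb6 (0.282 ± 0.0672) and Gjb2 (0.0822 ± 0.0631) were lowest.

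Added up over the 7 connexins, the RPKM was 377, 362, 327 and 427 for control replicates 1 to 4, against 319, 303 and 302 for knockout replicates 1 to 3. The knockouts were below all controls, but knockout replicate 1 came close to control replicate 3. Gjb1 made up 7.86%, 10.1%, 8.82% and 5.77% of this sum in the controls, against 1.06%, 0.682% and 0.881% in the knockouts. For Gja1 the shares were 7.56%, 7.90%, 5.89% and 4.61% in the controls, against 17.6%, 24.5% and 21.7% in the knockouts. Gjc3 held most of the sum in every library, 81.8% to 89.5% in the controls and 74.3% to 81.0% in the knockouts. These shares are linked, since a lower share of one gene raises the others.

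**Figure D4:**
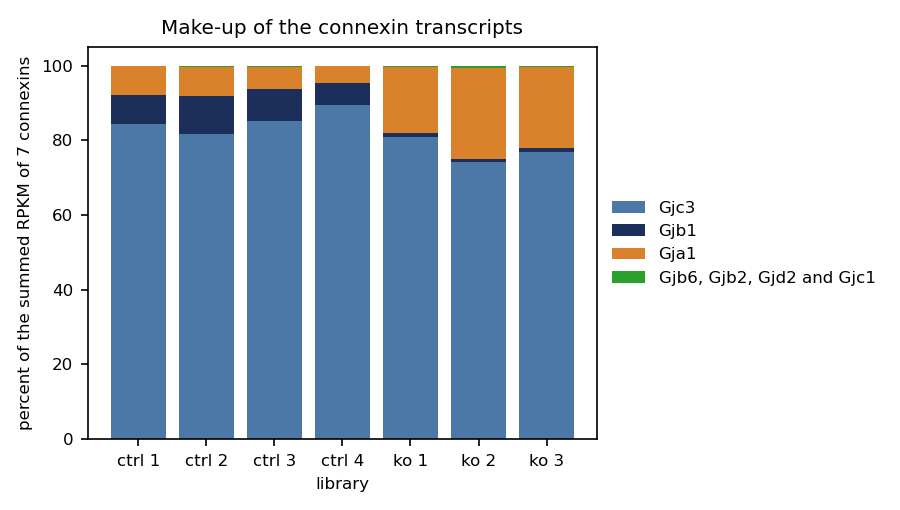
Make-up of the summed RPKM of the 7 connexins in each library, in percent. The Gja1 segment covers 4.61% to 7.90% in the 4 controls and 17.6% to 24.5% in the 3 knockouts, the Gjb1 segment shrinks from at least 5.77% to at most 1.06%, and Gjc3 fills most of each bar.

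Beyond these 7, a list of 42 gap junction pathway genes held 11 other connexins, 3 pannexins, 11 scaffold and trafficking genes, 9 kinases that act on connexins and 8 ion and water transport genes of the glial network. Of the 31 tested, 9 passed, 3 of them lower and 6 higher, with a median log2 fold change of 0.13, where 12.2% of all tested genes were lower and 11.6% higher. The same shares are the background of the counts in its groups. Without knockout replicate 1 the number of higher genes was 2, and without knockout replicate 2 it was 1. Over all tested genes, higher calls were fewer in these fits as well, with 1209 of 19047 and 850 of 18604 against 2122 of 18352. The 11 other connexins, among them the vascular Gja4 and Gja5, had means of at most 15.4 normalized counts in either group, and Gja5, the only one tested, did not pass (adjusted p = 0.255 in edgeR). Among the pannexins, which form channels related to connexin hemichannels, Panx2 rose from 71.2 ± 25.6 (SD, n = 4 libraries) to 189 ± 54.1 normalized counts (SD, n = 3), a log2 fold change of 1.41 (adjusted p = 0.0226 in edgeR). Panx1 had 7213 ± 558 and 6186 ± 432 and did not pass (adjusted p = 0.0833). Tjp1, which encodes the ZO-1 protein that binds connexins at the junction, had a log2 fold change of -0.18 and did not pass either (adjusted p = 0.109).

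Of the 11 scaffold and trafficking genes, 3 were higher. The drebrin gene Dbn1, an actin regulator, rose from 4737 ± 1115 to 9118 ± 2570 normalized counts, and the cingulin gene Cgn from 25.7 ± 6.76 to 60.6 ± 21.7. The third, the ubiquitin ligase gene Nedd4, was below the log2 fold change of 0.5 set for naming genes of these lists and is named because it completes this count, with a log2 fold change of 0.23. Among the kinases only Mapk3 passed, with a fall from 6966 ± 534 to 4710 ± 76.9 normalized counts (log2 fold change -0.56, adjusted p = 0.00195 in edgeR). Of the 8 transport genes, 2 were lower and 2 higher. Slc12a2, the sodium potassium chloride cotransporter gene, fell from 26540 ± 1362 to 9640 ± 857 normalized counts, a log2 fold change of -1.46 (adjusted p = 6.17e-05). Kcnj10, the Kir4.1 potassium channel gene of astrocytes and oligodendrocytes, fell from 38770 ± 2924 to 30680 ± 371, a log2 fold change of -0.34. Mlc1 and Aqp4, both astrocyte genes of perivascular endfeet, rose by log2 fold changes of 0.89 and 1.19. Aqp4 is also one of the 10 astrocyte markers.

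**Figure D5:**
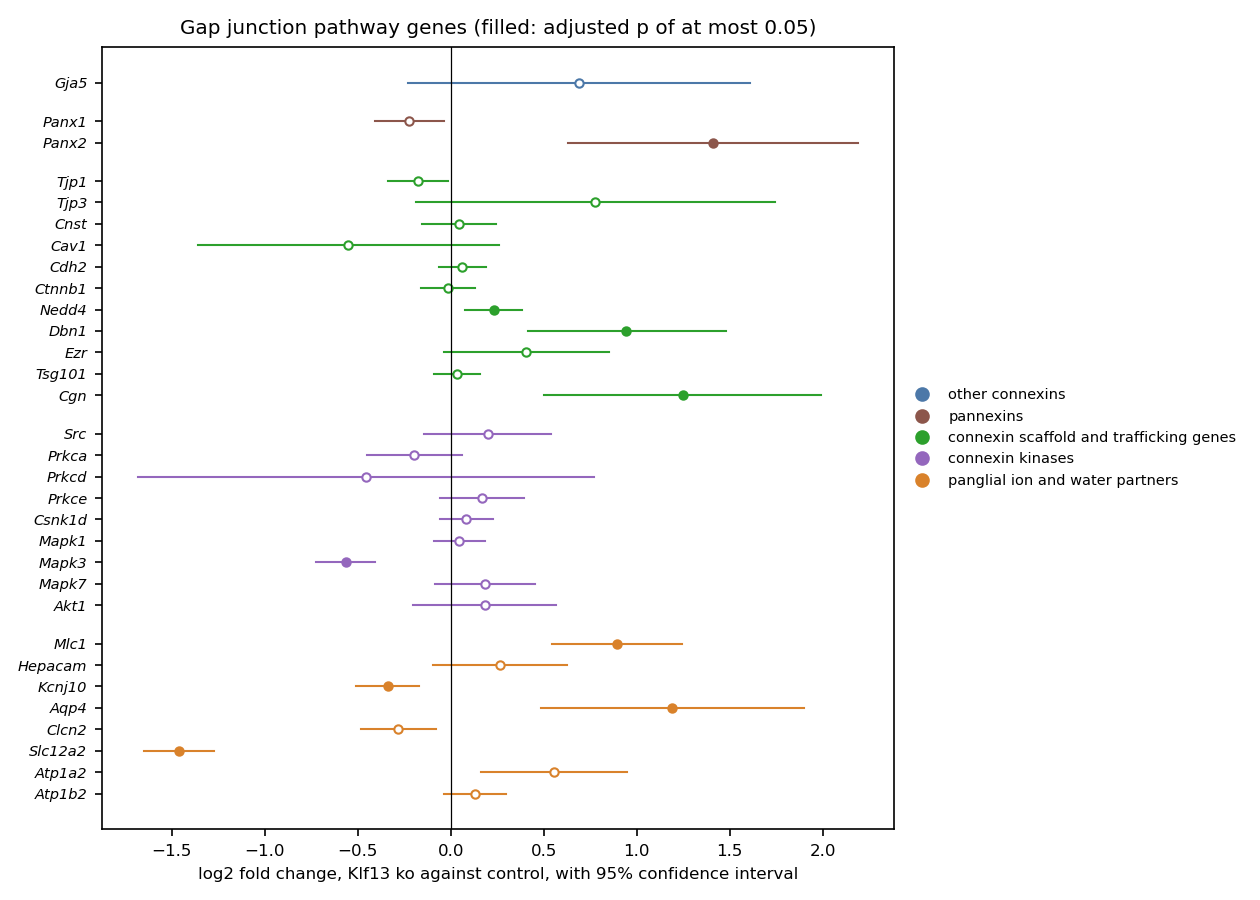
Log2 fold changes with 95% confidence intervals of the 31 tested gap junction pathway genes, coloured by list, filled where the adjusted p of edgeR was at most 0.05. The 9 filled points lie on both sides of 0, from Slc12a2 at -1.46 to Panx2 at 1.41.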

How the data were processed

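RNA-seq libraries of 4 wildtype control and 3 Klf13 knockout cultures were compared. According to the methods and the submitters' processing notes, reads were trimmed with Trimmomatic 0.36, mapped to GRCm38 with STAR 2.5.2b, and unique hits within exons were counted with Subread 1.5.2. The deposited values are these whole-number counts per gene without normalization. The annotation release and strand setting are not given in the sources used here. Symbols were found for 48970 of 49315 gene identifiers.

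Counts were analysed with edgeR 4.0.16 in R 4.3.3, using filterByExpr, TMM factors and a robust quasi-likelihood fit with genotype as its only term, over 18352 genes. The fit was checked on simulated data. Log2 CPM used a prior count of 2. In log2 ratios, 0.5 normalized counts were added to both genes. The ratios were compared by an exact permutation test. A count of 0 allows up to 3 counts per library, which are 0.0503 to 0.122 CPM and cover counting error only. Where nothing but the number of a biological replicate describes the cultures, p-values measure the spread between these libraries.

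Connexins and lists were chosen with earlier results of these data known, and some further genes are not reported here. Named were the 7 connexins, Klf13, pathway genes that passed and changed by 0.5 or more on the log2 scale, Tjp1, Panx1 and Kcnj10, up to 3 markers per list with the highest means, and, for connexins with a mean of at least 20 normalized counts, the 3 genes most alike in pattern, of which 1 is left out for Gjc3. Snap25, Cldn5, Nedd4, Gja4 and Gja5 fall outside this rule and were chosen after their values were seen. Deviations of same-numbered control and knockout libraries correlated at 0.113, 0.463 and 0.168 over the tested genes (genes are not independent replicates), all above the minimum of 0.1 set for pairing, so that the number was also fitted as a block. Differently numbered libraries ranged from -0.529 to 0.197, and 3 of these pairs were above 0.113. Alternatives were DESeq2 1.42.0, other normalizations and filters, this block and leaving out each library.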

Additional observations from a re-analysis of the deposited data

Results flagged for a closer look

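In 1 of 18 genes examined (the 7 connexins, Klf13 and the 10 pathway genes named by rule), 1 control library lay apart from the other 3 by Dixon's criterion. It was Mapk3 in control replicate 3, with 7758 normalized counts against 6597 to 6789 in the other controls. About 1 in 20 groups is expected to be marked in this way by chance. The same library holds the highest sum of microglia markers, and the part of these cells in the Mapk3 value was not tested.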

How the results depend on the processing

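The directions of all 7 connexins were kept under every alternative that gave a value, and the calls of Gjb1 and Gja1 and the lack of a call for Gjb6, Gjb2 and Gjc1 were kept as well. With upper quartile normalization Gjc3 no longer passed (log2 fold change -0.38, adjusted p = 0.0817 from edgeR), which left 1 lower connexin. DESeq2's Wald test and the replicate block each gave 2 higher connexins, since Gjd2 passed (2.30 and 1.98). The block changed no other call of a connexin. Without a filter on low counts, 3 pathway genes were higher, and over all genes 1535 of 34026 were, against 2122 of 18352 with the filter. With 5 in place of 0.5 added, the differences of the log2 ratios of Gjb1 to Gjc3 and of Gjb2 to Gjb6 were -3.04 and -1.44. Both had an adjusted exact permutation p of 0.0429. For Gjb1 to Gjc3 the unadjusted p was already the smallest possible, so its adjusted value fell only through the change in Gjb2 to Gjb6. The difference of Gja1 to Gjb6 moved from 0.01 to 0.50 and did not pass (adjusted exact permutation p = 0.429). With each library left out in turn, 1 to 2 connexins were lower and 1 to 2 higher, 2 to 3 pathway genes lower and 1 to 6 higher. The log2 fold change of Gjc3 ran from -0.48 to -0.30 and that of Gjd2 from 1.91 to 2.90, and the difference of the log2 ratio of Gja1 to Gjb6 from -0.44 to 0.80. The cause of these shifts was not tested. With at least 10 counts required in every library, Gjb6, Gjb2 and Gjd2 were not tested. These 3 genes had 1 to 133 counts per library.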
